A study of Mus musculus with 24 samples.

Results

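The 10 genes described here are Inmt, Pm20d1, Abhd14b, Isoc2a, Kcng1, Kcnt1, Pde6a, Adgrg4, Itih2 and C1qtnf3. They were chosen by measured values, from 55416 gene IDs, for large falls of their RNA in mouse kidneys after ischemia reperfusion injury or for a large difference between Polg genotypes after that injury. They belong to no common pathway. They encode 4 small-molecule enzymes, 2 potassium channel subunits, a cyclic nucleotide phosphodiesterase subunit, an orphan adhesion receptor and 2 secreted proteins. All 10 passed the filter on low values, which 17430 genes did.

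RNA was sequenced in 24 kidney libraries, 6 in each of 4 groups. The groups were B-IRI PolgD257A, B-IRI Polg+/+, Sham PolgD257A and Sham Polg+/+, where B-IRI is the labels' term for the ischemia reperfusion surgery and sham is the control surgery. PolgD257A animals carry in Polg, the catalytic subunit of the mitochondrial DNA polymerase, a substitution that removes proofreading, so mutations collect in mitochondrial DNA in every tissue rather than only in the kidney. Polg+/+ animals were their littermates, and the study asked what such mutations add to the damage done by ischemia and reperfusion. The sources used here do not give sex, age, the time between surgery and sampling, or whether PolgD257A was heterozygous or homozygous. The labels call the 6 libraries of a group biological replicates but do not state that they came from 6 animals.

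Libraries held 18669806 to 26341004 reads in genes in B-IRI PolgD257A, 19853485 to 25355776 in B-IRI Polg+/+, 20843184 to 25858504 in Sham PolgD257A and 16689284 to 19737994 in Sham Polg+/+. The tissue label fitted its markers, since Umod of the thick ascending limb had 60753 to 101845 normalized counts and Slc34a1 of the proximal tubule 36636 to 167257 over all libraries. Xist had 0 to 7.42 normalized counts and the Y-linked Ddx3y 1104 to 1631 in the 24 libraries. Polg itself had a log2 difference of 0.08 ± 0.04 (SE) between B-IRI PolgD257A and B-IRI Polg+/+ kidneys and of -0.02 ± 0.04 between the sham groups. The substitution changes the protein, so the level of Polg RNA does not check the genotype labels.

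Most of the kidney's mass is proximal tubule, whose cells reabsorb filtered solutes, oxidise fatty acids and carry a large stock of enzymes for amino acids and foreign compounds. The thick ascending limb downstream takes up sodium, potassium and chloride through the cotransporter Slc12a1 and lies partly in the poorly oxygenated outer medulla. After ischemia, surviving tubule cells lose many of their differentiated functions and switch on injury genes such as Havcr1 and Lcn2. The 10 genes are read below against markers of these segments.

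The choice of the genes used the contrasts between B-IRI and sham kidneys and between genotypes after B-IRI. Their values in those contrasts are therefore given as a description with no test. In both genotypes all 10 genes had every B-IRI library below every sham library of the same genotype. That pattern held for 17.5% of all genes tested in PolgD257A kidneys and for 8.7% in Polg+/+ kidneys, and nothing is read from the comparison because the choice fixed it. Between genotypes after B-IRI, 7 of the 10 had every B-IRI PolgD257A library below every B-IRI Polg+/+ library, as 5.94% of all genes did. For the other 3, Kcnt1, Pde6a and Itih2, 5 of 6 B-IRI PolgD257A libraries lay below every B-IRI Polg+/+ library.

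**Figure D1:**
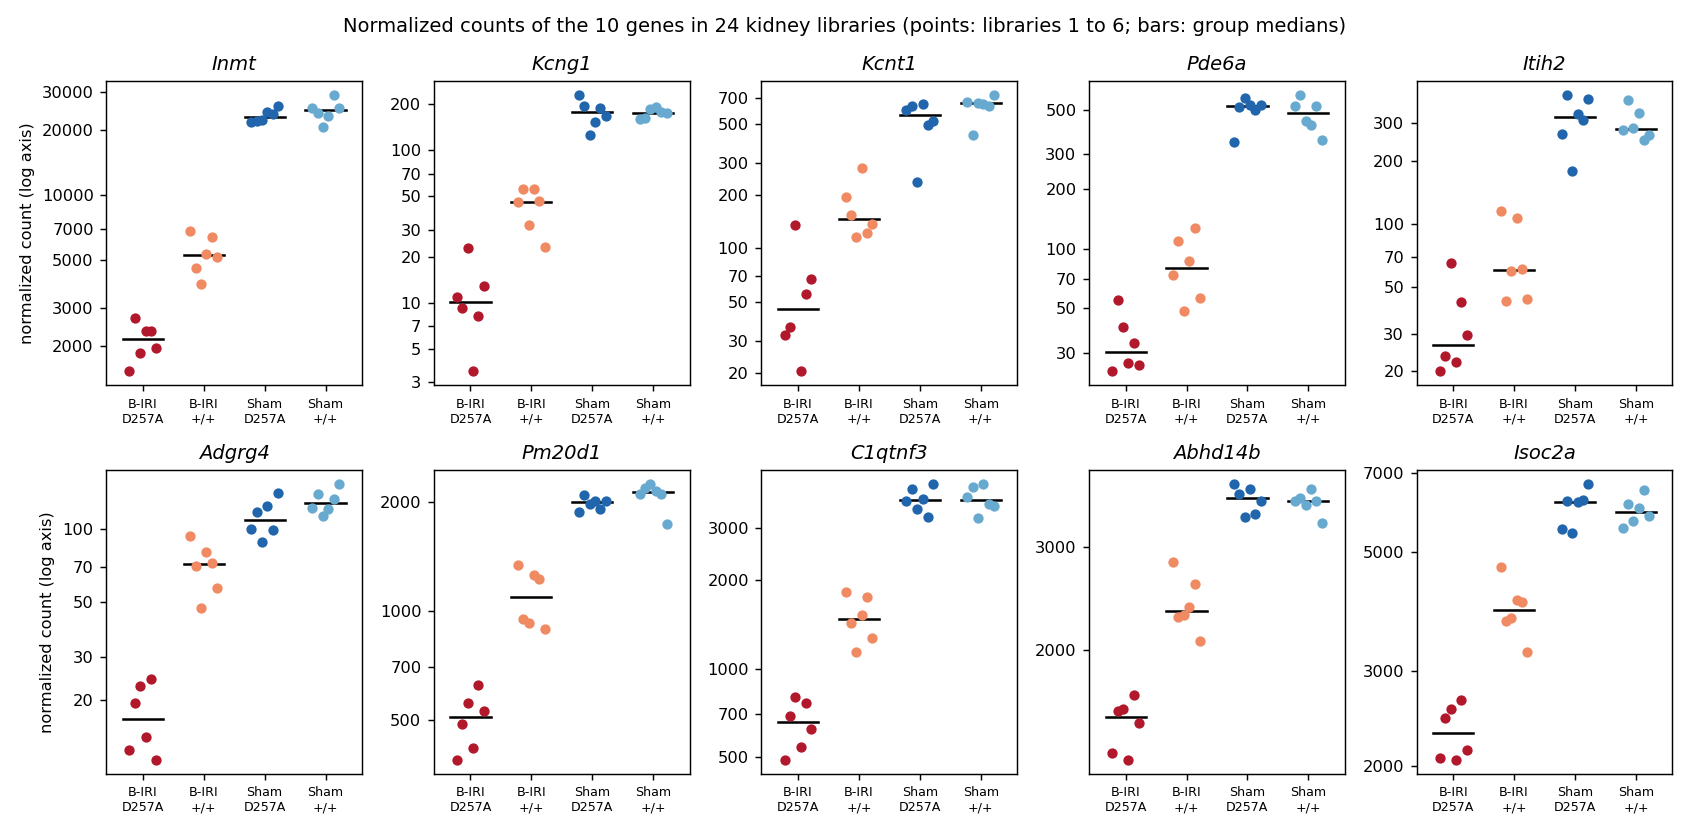
Normalized counts (log axis) of the 10 genes in 24 kidney libraries, 1 panel a gene, with points for the 6 libraries of each group and black bars for group medians. In each panel the B-IRI PolgD257A median is lowest, the B-IRI Polg+/+ median lies between, and the points of both sham groups overlap at the top.

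The median log2 difference over the 10 genes was -2.95 between B-IRI and sham PolgD257A kidneys, -1.65 between B-IRI and sham Polg+/+ kidneys, and -1.22 between the genotypes after B-IRI. Over all 17430 genes these medians were 0.00, -0.01 and 0.01. Differences are on the scale of log2(normalized count + 1), which understates the change of low genes. In whole tissue such as this, fewer cells of a type and less RNA per cell cannot be told apart.

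Inmt encodes indolethylamine N-methyltransferase, which transfers a methyl group from S-adenosylmethionine to tryptamine and other amines and, in the mouse, to thioethers. It was the most abundant of the 10 per length of transcript, at 633 ± 35.1 RPKM (reads per kilobase of exon, scaled to library size) in Sham PolgD257A and 688 ± 73.3 RPKM in Sham Polg+/+ kidneys (SD, n = 6 each). Its lowest, median and highest normalized counts were 1529, 2157 and 2697 in B-IRI PolgD257A and 3895, 5273 and 6829 in B-IRI Polg+/+ libraries. In Sham PolgD257A libraries they were 21769, 23129.9 and 25880.2, and in Sham Polg+/+ libraries 20766, 24774 and 29235. The 2 B-IRI groups did not overlap, and neither reached the sham range. The B-IRI mean was 9.09% of the sham mean in PolgD257A and 21.7% in Polg+/+ kidneys, log2 differences of -3.48 ± 0.12 and -2.22 ± 0.12 (SE).

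Inmt lies at chr6:55170626-55175043 on the minus strand of GRCm38 and overlaps no other exon. Its RefSeq promoter window (chr6:55174941-55175240, minus strand, GRCm38.p6, from 250 bases before the start) is shown because it holds 2 close copies of the TATA box TATAAA, in capitals, at -80 and -69 counted from 0 at the RefSeq start. The same window carries a directly repeated stretch of 46 bases, with copies that begin at bases 16 and 62. It holds no CpG. GENCODE M21 places the Inmt start 53 bases from that of RefSeq, and positions counted from there would differ.
Inmt promoter: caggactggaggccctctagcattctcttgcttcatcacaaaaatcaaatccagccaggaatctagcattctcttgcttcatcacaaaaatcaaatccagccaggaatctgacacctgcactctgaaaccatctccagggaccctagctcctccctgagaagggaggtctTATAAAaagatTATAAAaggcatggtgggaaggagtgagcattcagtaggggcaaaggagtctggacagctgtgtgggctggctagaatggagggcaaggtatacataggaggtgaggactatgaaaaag

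Pm20d1 encodes a secreted M20 peptidase that joins and splits N-acyl amino acids and is best known from brown fat. In B-IRI PolgD257A libraries it had 388, 508 and 624 normalized counts (lowest, median, highest), against 889, 1090.0 and 1337 in B-IRI Polg+/+ libraries. Sham PolgD257A libraries had 1870.1, 1991 and 2087, and Sham Polg+/+ libraries 1740.2, 2126 and 2245. The 3 levels were separated by gaps with no library in them. After B-IRI 25.3% of the sham mean was left in PolgD257A and 52.6% in Polg+/+ kidneys.

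Abhd14b encodes an alpha/beta hydrolase, whose human protein has been described as a lysine deacetylase. Its normalized counts ran over 1301, 1539 and 1675 in B-IRI PolgD257A, 2070.2, 2330.5 and 2825 in B-IRI Polg+/+, 3372, 3636 and 3844 in Sham PolgD257A and 3299, 3589.6 and 3758 in Sham Polg+/+ libraries. It had the smallest differences between B-IRI and sham kidneys of the 10, and replicates that varied by no more than 11.1% (coefficient of variation) in any group. The share of the sham mean left was 41.5% in PolgD257A and 67.4% in Polg+/+ kidneys. Abhd14b (chr9:106447459-106452923, plus strand, GRCm38) shares 207 exon bases with Abhd14a and 551 with Gm28959 on the opposite strand, and whether the counting kept the strand is not given, so its counts are uncertain. Abhd14a, its paralog, was also lower after B-IRI, by a log2 difference of -1.31 ± 0.07 in PolgD257A and -0.89 ± 0.07 in Polg+/+ kidneys (limma, adjusted p = 5.27e-14 and 5.16e-10).

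Isoc2a encodes a protein with an isochorismatase domain. It had 2053, 2300.1 and 2652 normalized counts (lowest, median, highest) in B-IRI PolgD257A and 3262, 3900.2 and 4687 in B-IRI Polg+/+ libraries. Sham PolgD257A libraries gave 5410.4, 6196 and 6699, and Sham Polg+/+ libraries 5528, 5929.8 and 6509. Like Abhd14b it kept a large share of its RNA, 38.4% of the sham mean in PolgD257A and 65.9% in Polg+/+ kidneys. Isoc2a (chr7:4877153-4896973, plus strand, GRCm38) lies 6895 bases from its paralog Isoc2b, and how reads that match both were counted is not given.
Isoc2b was also lower after B-IRI. It had 225 ± 42.8 normalized counts in B-IRI PolgD257A, 338 ± 54.1 in B-IRI Polg+/+, 574 ± 47.5 in Sham PolgD257A and 495 ± 62.8 in Sham Polg+/+ kidneys (SD, n = 6 each). Its log2 difference between B-IRI and sham was -1.36 ± 0.11 in PolgD257A and -0.55 ± 0.11 in Polg+/+ kidneys (limma, adjusted p = 5.91e-11 and 0.000264).

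The promoter window of Isoc2a (chr7:4876803-4877102, plus strand, GRCm38.p6) is shown as a contrast to that of Inmt. Its RefSeq start lies 100 bases from that of GENCODE M21. The window has 15 CpG and 57.7% GC, no TATAAA, and 3 CCAAT boxes (2 of them on the other strand, read as ATTGG). Capitals mark these boxes, a GC box (GGGCGG, here on the other strand), the core ACGTG of hypoxia elements (other strand) and the HNF4 core CAAAGT.
Isoc2a promoter: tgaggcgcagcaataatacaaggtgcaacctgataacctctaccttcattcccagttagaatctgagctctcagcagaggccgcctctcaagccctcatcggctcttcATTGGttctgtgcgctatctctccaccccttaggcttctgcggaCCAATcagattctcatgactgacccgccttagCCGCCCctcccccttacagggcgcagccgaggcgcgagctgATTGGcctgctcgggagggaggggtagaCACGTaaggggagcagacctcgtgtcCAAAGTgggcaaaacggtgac

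Kcng1 encodes Kv6.1, a subunit that forms no channel alone and joins other potassium channel subunits to change how they open and close. Its lowest, median and highest normalized counts were 3.55, 10.1 and 22.8 in B-IRI PolgD257A libraries and 23.3, 46.1 and 55.9 in B-IRI Polg+/+ libraries. Both sham groups were far higher, with 125, 179.5 and 231 in Sham PolgD257A and 159.5, 177 and 193 in Sham Polg+/+ libraries. With 4 to 214 reads a library it is among the less precise of the 10, and its B-IRI PolgD257A libraries varied by 57.5% (coefficient of variation). The share of the sham mean left was 6.34% in PolgD257A, the smallest of the 10, and 24.6% in Polg+/+ kidneys. The log2 differences were -4.01 ± 0.26 and -2.06 ± 0.26 (SE), the first of them the 7th deepest of 17430 genes. Kcng1 lies at chr2:168260117-168281736 (minus strand, GRCm38).

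Kcnt1 (chr2:25863734-25918273, plus strand, GRCm38) encodes Slack, a potassium channel opened by sodium inside the cell. It had 20.4, 45.7 and 135 normalized counts (lowest, median, highest) in B-IRI PolgD257A and 116, 146 and 283 in B-IRI Polg+/+ libraries. Sham PolgD257A libraries had 236, 558 and 646, and Sham Polg+/+ libraries 435, 652 and 728. B-IRI PolgD257A replicate 3, at 135, lay inside the B-IRI Polg+/+ range, and the other 5 lay below it. On average 11.1% of the sham mean was left in PolgD257A and 26.7% in Polg+/+ kidneys. Kcnt1 varied most of the 10 between replicates, by 71.5% in B-IRI PolgD257A libraries (coefficient of variation).

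Pde6a encodes the alpha catalytic subunit of the rod photoreceptor phosphodiesterase, which in the retina works as a pair with Pde6b. Its normalized counts were 24.2, 30.04 and 54.9 (lowest, median, highest) in B-IRI PolgD257A and 48.3, 80.1 and 127 in B-IRI Polg+/+ libraries. Sham PolgD257A libraries had 345, 521 and 571, and Sham Polg+/+ libraries 350.2, 479 and 594. B-IRI PolgD257A replicate 2, at 54.9, lay inside the B-IRI Polg+/+ range, and no B-IRI library reached a sham one. The share of the sham mean left was 6.88% in PolgD257A and 17.6% in Polg+/+ kidneys, where no other of the 10 kept less. Pde6b was near 0, with a median of 1.44 and at most 6.76 normalized counts over all libraries. Pde6g had a median of 8.62 and at most 16.9, and the cone subunit Pde6c a median of 0. The photoreceptor marker list, 8 genes, summed to 63.4 to 146 normalized counts in B-IRI PolgD257A, 48.2 to 79.2 in B-IRI Polg+/+, 35.9 to 56.0 in Sham PolgD257A and 42.1 to 63.7 in Sham Polg+/+ libraries. Of that list Prph2 was at 0 in all 24 libraries and Rcvrn at 0 in every B-IRI and Sham PolgD257A library. Gnat1 reached 116 in B-IRI PolgD257A libraries. Of the 3 markers past the filter, 2 rose in PolgD257A and 0 in Polg+/+ kidneys after B-IRI (limma, adjusted p under 0.05). So sham kidneys held at least 345 Pde6a counts with almost no Pde6b. Pde6a overlaps the pseudogene Rps2-ps10 without shared exon bases.

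Adgrg4 encodes an adhesion G protein-coupled receptor with no ligand known for certain, and was the least abundant of the 10 per length, at 0.490 ± 0.0776 RPKM in Sham PolgD257A and 0.589 ± 0.0717 RPKM in Sham Polg+/+ kidneys (SD, n = 6 each). It had 11.4, 16.8 and 24.4 normalized counts (lowest, median, highest) in B-IRI PolgD257A libraries, against 47.3, 71.5 and 93.2 in B-IRI Polg+/+ libraries. In Sham PolgD257A libraries it had 88.4, 108 and 139, and in Sham Polg+/+ libraries 113, 127 and 153. The B-IRI groups did not overlap, and B-IRI Polg+/+ replicate 1, at 93.2, lay above the lowest Sham PolgD257A library but below every Sham Polg+/+ library. The genotypes after B-IRI lay further apart here than for any other of the 10, with a log2 difference of -1.97 ± 0.17 (SE), the 12th deepest of all genes. In Polg+/+ kidneys 54.1% of the sham mean was left, and in PolgD257A kidneys 15.7%. Adgrg4 lies at chrX:56870163-57001558 (plus strand, GRCm38).

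Itih2 encodes heavy chain 2 of the inter-alpha-trypsin inhibitor, a liver-made plasma protein whose heavy chains are passed to hyaluronan and stabilise it in the matrix. Libraries of B-IRI PolgD257A had 19.99, 26.7 and 65.2 normalized counts (lowest, median, highest) and those of B-IRI Polg+/+ 43.1, 60.5 and 116. Sham PolgD257A libraries had 179, 322 and 410.2, and Sham Polg+/+ libraries 249.6, 281 and 388. Again B-IRI PolgD257A replicate 3 was the highest of its group, at 65.2, above 4 of the 6 B-IRI Polg+/+ libraries. On average 10.7% of the sham mean was left in PolgD257A and 23.9% in Polg+/+ kidneys. The promoter window of Itih2 (chr2:10130634-10130933, minus strand, GRCm38.p6) is shown because it carries, in capitals, an AP-1 site (TGANTCA, here TGACTCA) at -149 and the HNF4 core CAAAGT at -28. RefSeq places the start 713 bases from that of GENCODE M21, so the window may not be the one used in kidney.
Itih2 promoter: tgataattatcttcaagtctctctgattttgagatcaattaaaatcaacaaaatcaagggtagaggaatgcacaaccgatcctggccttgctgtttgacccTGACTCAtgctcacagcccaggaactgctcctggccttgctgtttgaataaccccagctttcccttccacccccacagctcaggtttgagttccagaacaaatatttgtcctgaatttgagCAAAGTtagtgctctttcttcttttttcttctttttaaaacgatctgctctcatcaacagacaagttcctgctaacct

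C1qtnf3 encodes CTRP3, a secreted relative of complement C1q and adiponectin. It had 491, 659 and 800.3 normalized counts (lowest, median, highest) in B-IRI PolgD257A and 1134, 1474 and 1817 in B-IRI Polg+/+ libraries. Sham PolgD257A libraries had 3260.5, 3724 and 4207, and Sham Polg+/+ libraries 3236, 3712 and 4235. The B-IRI groups did not overlap each other or the sham groups. The share of the sham mean left was 17.4% in PolgD257A and 39.5% in Polg+/+ kidneys. Its promoter window (chr15:10952082-10952381, plus strand, GRCm38.p6) is shown as the second with a TATAAA, at -6 from a start that RefSeq and GENCODE M21 share.
C1qtnf3 promoter: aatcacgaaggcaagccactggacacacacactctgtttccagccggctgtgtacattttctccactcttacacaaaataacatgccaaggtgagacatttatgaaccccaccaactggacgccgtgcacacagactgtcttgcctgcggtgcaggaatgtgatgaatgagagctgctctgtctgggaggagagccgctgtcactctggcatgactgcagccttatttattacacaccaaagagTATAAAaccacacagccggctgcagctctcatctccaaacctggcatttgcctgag

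Promoter windows were found for 6 of the 10 genes, and the motifs were picked after these windows had been read. Both strands of 300 bases were searched. TATAAA was in 2 of the 6 and in 13.6% of 32851 RefSeq promoters, CCAAT in 1 and 37.4%, and GGGCGG in 1 and 35.7%. CAAAGT was in 2 and in 14.4% of promoters, TGANTCA in 2 and 7.81%, and ACGTG in 1 and 19.6%. GTTAAT, part of the HNF1 site, was in Adgrg4 alone and in 7.10% of promoters, and the ERR core AAGGTCA in none of the 6 and in 4.72%. RefSeq places the start of Adgrg4 24071 bases and that of Abhd14b 1181 bases from that of GENCODE M21. Those windows may therefore not be the ones used in kidney. No motif was in more than 2 of the 6 windows, and a match is a string of letters, not a measured binding site.

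Per length of transcript, the order of levels in Sham Polg+/+ kidneys was Inmt, then Isoc2a at 118 ± 5.81, C1qtnf3 at 65.5 ± 5.34, Abhd14b at 59.5 ± 1.501, Pm20d1 at 13.2 ± 1.03, Pde6a at 4.50 ± 0.759, Itih2 at 4.03 ± 0.645, Kcnt1 at 2.95 ± 0.515, Kcng1 at 1.74 ± 0.147 and Adgrg4 at 0.589 ± 0.0717 RPKM (SD, n = 6). The neighbours Pde6a and Itih2 differed by less than 1 SD, and C1qtnf3 and Abhd14b by little more than 1 SD of C1qtnf3. In B-IRI PolgD257A kidneys the order changed, since Inmt averaged 65.6 ± 12.4, Isoc2a 51.1 ± 5.42, Abhd14b 27.7 ± 2.59 and C1qtnf3 12.6 ± 2.29 RPKM. Inmt and Isoc2a, which lay far apart in sham kidneys, differed there by less than 2 SD of Inmt.

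The share of RNA left ran in the same direction as abundance only in part. The 5 least abundant genes kept 6.34% to 15.7% of their sham mean in B-IRI PolgD257A kidneys, and 4 of the 5 most abundant kept 17.4% to 41.5%. Inmt, the most abundant of all, kept 9.09%. The share left in PolgD257A was 0.258 (Kcng1) to 0.615 (Abhd14b) times the share left in Polg+/+ kidneys.

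**Figure D2:**
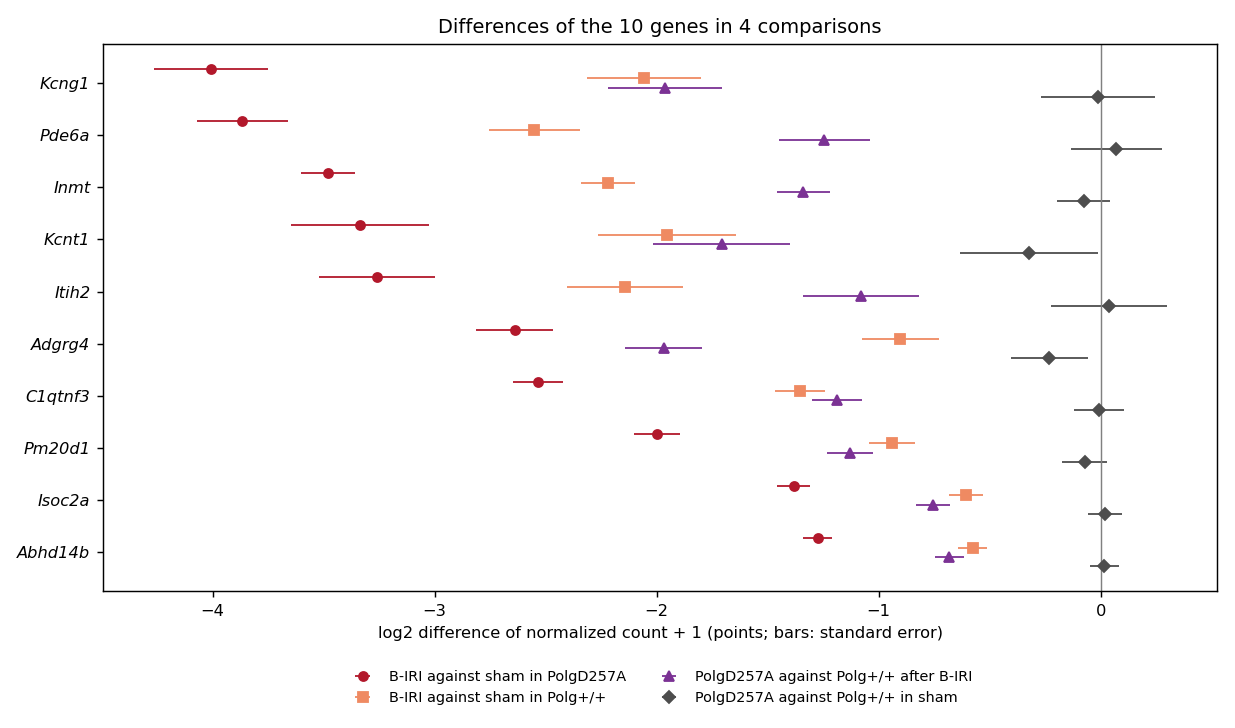
Log2 differences (x axis, points with bars of 1 standard error) of the 10 genes (y axis, ordered by the first comparison) in 4 comparisons of 6 against 6 libraries. The 3 comparisons with B-IRI lie left of 0 for every gene, and the comparison of the sham groups lies between -0.32 and 0.07.

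The surgery by genotype interaction, the difference between the changes in the 2 genotypes, was negative for all 10 genes. It ran from -1.95 ± 0.36 for Kcng1 and -1.74 ± 0.25 for Adgrg4 to -0.70 ± 0.09 for Abhd14b (log2, SE), with a median of -1.22. It is made of contrasts that chose the genes and is likewise given with no test. The authors' deposited table was read, from its name, as PolgD257A against Polg+/+ after B-IRI and not as the interaction. For that comparison it lists all 10, with log2 fold changes from -1.996 (Adgrg4) to -0.67 (Abhd14b).

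The comparison of the sham groups played no part in the choice, and here the genes could be tested. None of the 10 passed the test between Sham PolgD257A and Sham Polg+/+ kidneys (limma on all genes, adjusted p 0.839 to 0.998), and none had an unadjusted p under 0.05. Over all genes 0.0861% were called higher and 0.0402% lower in Sham PolgD257A, 22 genes or 0.126% in all. The log2 differences ran from -0.32 ± 0.31 (Kcnt1) and -0.23 ± 0.17 (Adgrg4) to 0.04 ± 0.26 (Itih2) and 0.07 ± 0.21 (Pde6a), with a median of -0.01. The standard errors show how different the precision was, from 0.07 for Abhd14b to 0.31 for Kcnt1. Sham PolgD257A replicate 3, with 236 Kcnt1 counts, weighed on that value, and without it the log2 difference of Kcnt1 was -0.11 (limma, adjusted p = 0.946).

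Between the B-IRI libraries of each genotype the damage differed, and these differences were not used to choose the genes. A tubule injury index was taken as the mean log2 value of 10 injury genes (Havcr1, Lcn2, Krt20, Clu, Spp1, Vcam1, Sox9, Krt8, Krt18 and Cdkn1a). It ran from 11.9 to 12.6 in B-IRI PolgD257A, 10.2 to 11.6 in B-IRI Polg+/+, 8.005 to 8.33 in Sham PolgD257A and 7.84 to 8.20 in Sham Polg+/+ libraries. Each gene was correlated with the index over the 6 B-IRI libraries of each genotype separately, 20 relations in all. Exact two-sided permutation tests ran over 720 orderings, so the smallest possible p is 0.00139 for Pearson's r. For Spearman's rho it is 0.00278, the p of a perfect order by rank.

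In B-IRI Polg+/+ libraries all 10 correlations were negative, with a median r of -0.77, and in B-IRI PolgD257A libraries 9 of 10 were, with a median of -0.80. After adjustment over the 20 relations, 2 passed with Pearson's r, both in B-IRI Polg+/+ libraries. For Itih2 r was -0.948 and rho -0.943 (exact permutation p = 0.00417 and 0.0167, adjusted p = 0.0417 and 0.0476, n = 6). For Isoc2a r was -0.891 and rho -1 (exact permutation p = 0.00278 for both, adjusted p = 0.0417 and 0.0476, n = 6). Without the 2 libraries farthest from the median index, r was -0.770 for Itih2 and -0.882 for Isoc2a, and neither passed over 4 libraries. That test could not decide, since 4 libraries have few orderings. Nearly all 20 relations would have to reach its smallest p for any to pass. With any one of the 6 B-IRI Polg+/+ libraries left out, both also missed the threshold, where fewer orderings likewise make a pass harder. In B-IRI PolgD257A libraries the smallest adjusted p for r was 0.0741 (exact permutation), with r = -0.897 for Pm20d1, -0.893 for Kcnt1 and -0.881 for Itih2. With Havcr1 alone as the index the B-IRI PolgD257A correlations were weaker, at -0.752 for Pm20d1, -0.405 for Kcnt1, -0.410 for Itih2, -0.312 for Isoc2a, -0.110 for Kcng1 and 0.221 for Pde6a, and none passed. In B-IRI Polg+/+ libraries Itih2, Isoc2a and Pm20d1 passed with it (r = -0.968, -0.927 and -0.939, exact permutation, adjusted p = 0.0278 each).

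By rank, Spearman's rho passed for Pm20d1, Abhd14b and Isoc2a in B-IRI PolgD257A and for Itih2, Pm20d1, Abhd14b and Isoc2a in B-IRI Polg+/+ libraries (exact permutation, adjusted p = 0.0476 for each, n = 6). So 3 of the 10 genes passed by rank in both genotypes, and each of the 3 was lower in libraries with a higher index. All that passed by rank shared the same adjusted p, near the threshold, and alternatives are given for r alone. What share of all genes follows the index was not computed. Nothing particular to the 10 genes is therefore read from the numbers that passed or were negative. Inmt and Pde6a followed the index least. For Inmt r was 0.09 in B-IRI PolgD257A and -0.66 in B-IRI Polg+/+ libraries, and for Pde6a -0.27 and -0.32 (exact permutation, adjusted p = 0.872, 0.224, 0.637 and 0.548, n = 6 each). The index and the genes come from the same libraries and share their scaling.

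**Figure D3:**
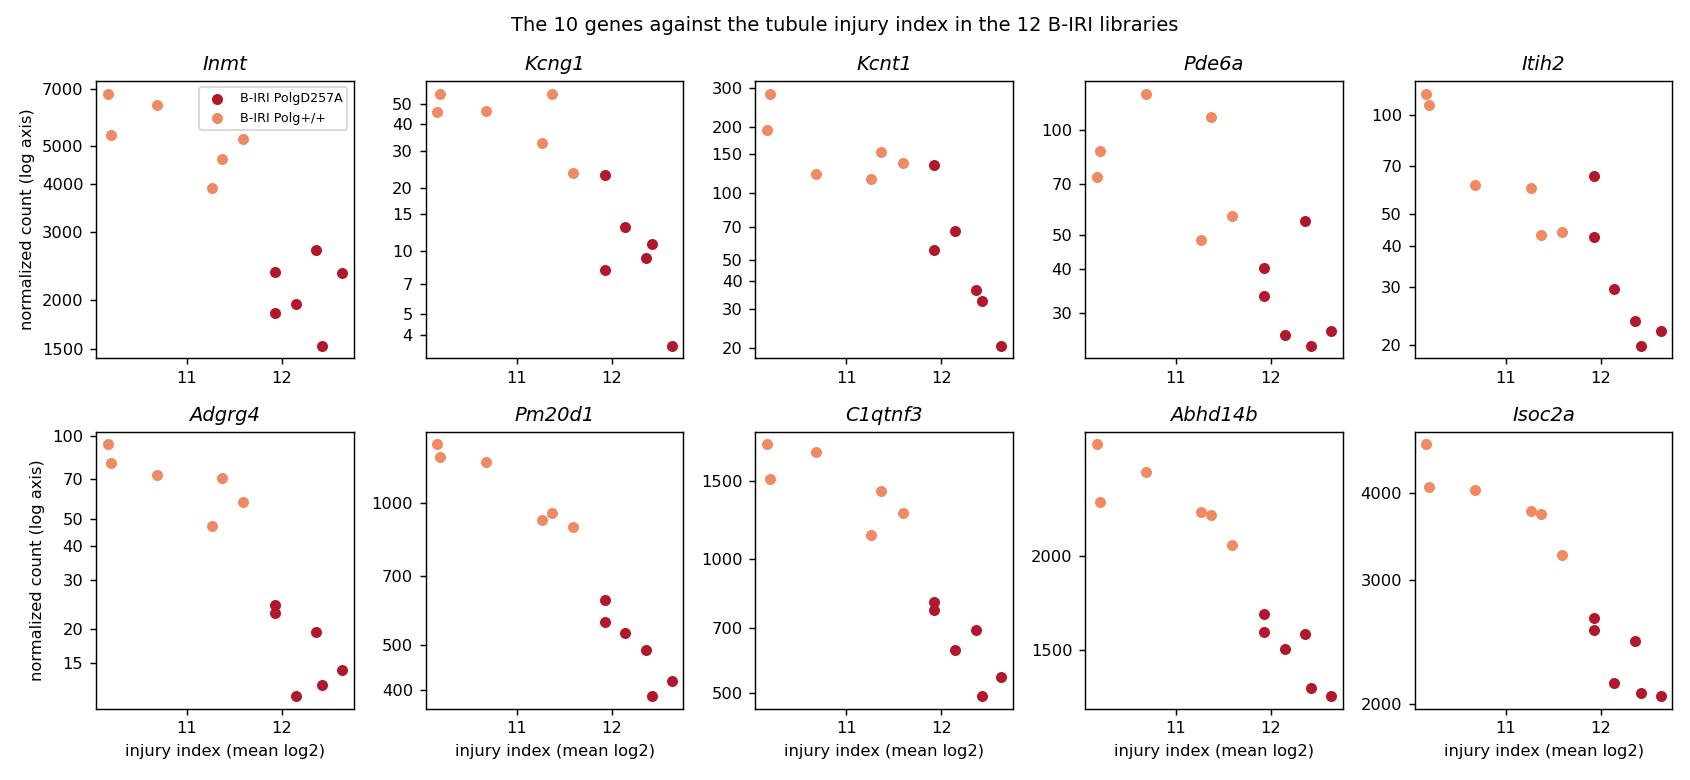
Normalized counts (log axis) of the 10 genes against the tubule injury index (mean log2 value of 10 injury genes) in the 12 B-IRI libraries, 1 panel a gene and 1 point a library. Within both genotypes most genes are lower where the index is higher, most evenly for Pm20d1 and Isoc2a and least for Inmt and Pde6a.

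Libraries of 1 group also differed in their segment markers. Group means were subtracted from the log2 values, and the mean of each marker list was set beside each gene over the 24 libraries. These are descriptions of likeness with no test, and the lists were laid beside the genes after the genes' values had been seen. Inmt, Pde6a, Pm20d1, C1qtnf3, Abhd14b, Isoc2a and Adgrg4 were most like the 17 proximal tubule markers, with r from 0.553 (Adgrg4) to 0.818 (Pm20d1). The lists were barely separated for Adgrg4, with 0.496 for the thick ascending limb and distal list. For C1qtnf3 the values were 0.695 for the proximal list and 0.607 for the thick limb list. Kcng1 and Kcnt1 were most like the 8 thick ascending limb and distal markers, with r = 0.681 and 0.662, against 0.1498 and 0.0605 with the proximal tubule list. With the collecting duct markers they had r = 0.350 and 0.477. Itih2 was somewhat more like the thick limb list, with 0.508, than the proximal list, with 0.375.

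Gene by gene, among named genes that averaged 100 normalized counts or more, Slc12a1, the sodium-potassium-chloride cotransporter of the thick ascending limb, was the most like Kcnt1 once group means were subtracted (r = 0.953, 24 libraries). Ppp1r1b, an inhibitor of protein phosphatase 1, came next (r = 0.950). Slc12a1 was also second for Kcng1 (r = 0.818), after the calcium channel subunit gene Cacnb4 (r = 0.834). Slc12a1 had 4179.6, 8613 and 17179.8 normalized counts (lowest, median, highest) in B-IRI PolgD257A and 17882, 20854 and 30577 in B-IRI Polg+/+ libraries. Sham PolgD257A libraries had 21212, 33278 and 37396, and Sham Polg+/+ libraries 27638, 31206 and 34871. In each of the 4 groups the library lowest in Slc12a1 was also lowest in Kcnt1, and in 3 of the 4 groups the highest was the same too. B-IRI PolgD257A replicate 3 was highest and replicate 4 lowest for both genes.

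**Figure D4:**
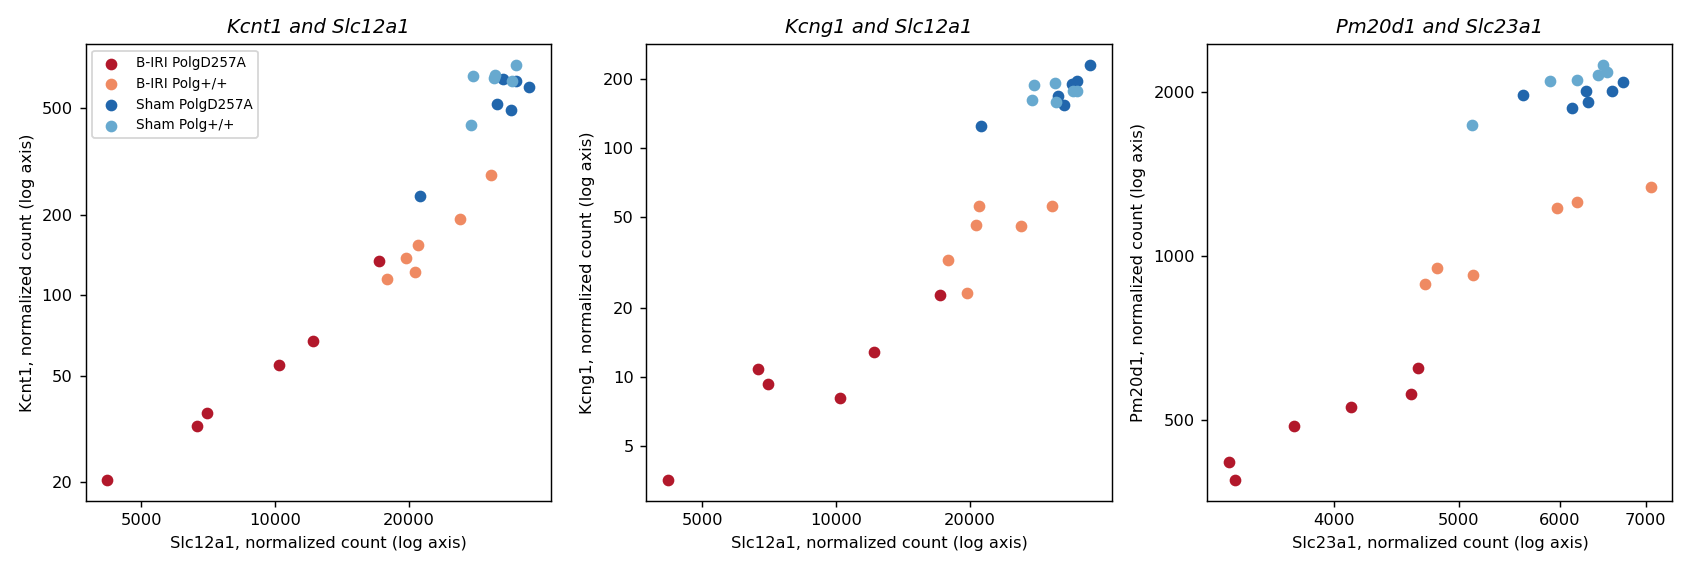
Normalized counts (both axes log) of Kcnt1 and Kcng1 against Slc12a1 and of Pm20d1 against Slc23a1, with 1 point a library and colours for the 4 groups. Kcnt1 follows Slc12a1 within the B-IRI PolgD257A libraries from 20.4 to 135 counts, and the single low Sham PolgD257A point of Kcnt1 (236) is also low in Slc12a1 (21212).

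For the other genes the nearest by the same measure were as follows. Pm20d1 and Abhd14b were most like Slc23a1, a vitamin C transporter (r = 0.937 and 0.858), Isoc2a most like the dehydrogenase gene Bdh2 (r = 0.934) and Itih2 most like the organic anion transporter gene Slc22a13 (r = 0.874). C1qtnf3 was most like Coq9, of ubiquinone synthesis (r = 0.859), Pde6a like B3galnt1 (r = 0.821) and the scaffold gene Pdzk1 (r = 0.807), Inmt like Grb7 (r = 0.804), and Adgrg4 like Sult1c2 (r = 0.792). With group means left in, all 10 had a gene at r of 0.976 or more over 24 libraries, among them Ivd and Pcca for Inmt, Ass1 for Pde6a, Slc6a20b for Pm20d1 and Abhd14b, and Pipox for C1qtnf3. Those values mostly repeat the differences between the 4 groups. The gene most like Kcng1 on that scale was Csf1r (r = 0.981), which had 473 to 723 normalized counts in B-IRI PolgD257A, 785 to 1004 in B-IRI Polg+/+, 1206 to 1413 in Sham PolgD257A and 1342 to 1598 in Sham Polg+/+ libraries. Csf1r is one of the 8 macrophage markers and the only one of them that fell after B-IRI, while 4 rose, in each genotype (limma, adjusted p under 0.05). The median log2 difference of that list was 0.32 in PolgD257A and 0.25 in Polg+/+ kidneys, and its part in the values of Kcng1 was not tested.

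**Figure D5:**
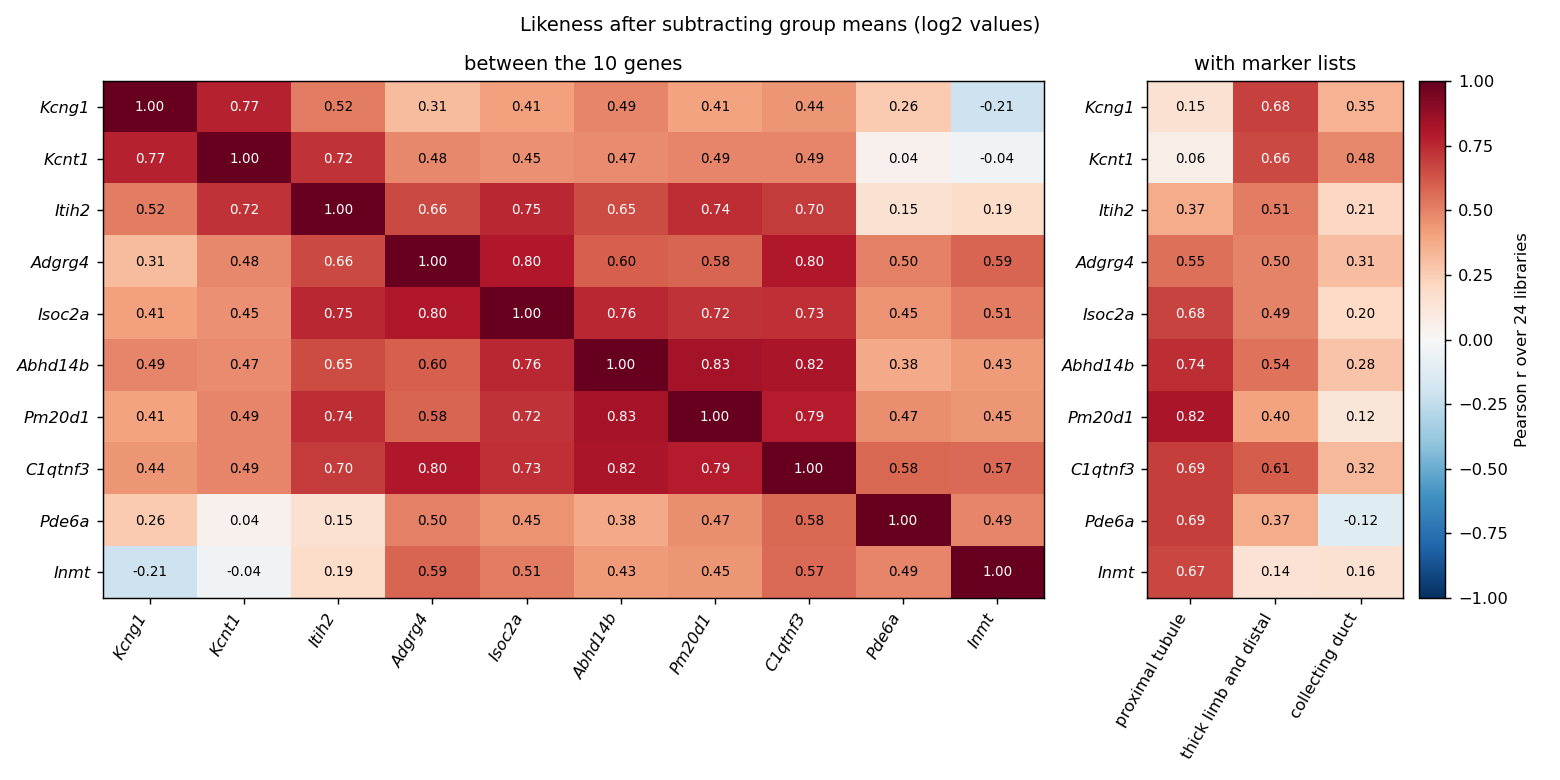
Pearson r over 24 libraries after subtracting group means from the log2 values, between the 10 genes (left) and between each gene and the mean of 3 marker lists (right), with red for positive and blue for negative r. Kcng1 and Kcnt1 are paired at 0.772 and follow the thick limb list. Pm20d1, C1qtnf3, Abhd14b and Isoc2a are paired at 0.725 to 0.832 and follow the proximal tubule list, C1qtnf3 not much more than the thick limb list.

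Among the 45 pairs of the 10 genes the same correlations ran from -0.208 (Inmt with Kcng1) to 0.832 (Pm20d1 with Abhd14b), with a median of 0.504. Inmt and the channel genes had correlations near or below 0 within groups, at -0.208 for Kcng1 and -0.04 for Kcnt1, although over the 4 groups all 3 were lowest in B-IRI PolgD257A kidneys. The genes shared libraries, depth and scaling, and these values are descriptions.

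Segment markers moved with the groups as well. The 17 proximal tubule markers summed to 204430.0 to 272265 normalized counts in B-IRI PolgD257A, 337531 to 431229 in B-IRI Polg+/+, 554818 to 645651 in Sham PolgD257A and 493424 to 619877 in Sham Polg+/+ libraries. The 8 thick limb and distal markers summed to 85547 to 141341, 148186 to 168555, 143171 to 171027 and 145550.0 to 169177 in the same order of groups. Median log2 differences between B-IRI and sham were -1.02 in PolgD257A and -0.42 in Polg+/+ kidneys for the proximal list and -0.74 and -0.29 for the thick limb list. Of the proximal list 16 of 17 fell in PolgD257A and 12 in Polg+/+ kidneys, and of the thick limb list 7 of 8 and 4 did, with 1 that rose in Polg+/+ kidneys (limma, adjusted p under 0.05). No marker of either list was at 0 in any group. The medians of the 10 genes, given above, lay lower, as their choice had fixed. The part of a changed cell make-up in their lower values was not tested.

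The families of the 10 genes were tested without the genes themselves, in lists of 168 genes in all, of which 130 passed the filter. Between B-IRI and sham PolgD257A kidneys 63 of the 130 fell and 23 rose (limma, adjusted p under 0.05), where over all genes 30.3% fell and 30.2% rose. In Polg+/+ kidneys 45 fell and 19 rose, where over all genes 19.8% fell and 21.4% rose. In B-IRI PolgD257A against B-IRI Polg+/+ kidneys 41 were lower and 12 higher, with 15.2% lower and 14.3% higher over all genes. None of the 130 differed between the sham groups. The median log2 difference of the 130 was -0.25 in PolgD257A and -0.13 in Polg+/+ kidneys. It is not set against the median of the 10, which were chosen for large differences in these contrasts.

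Among small-molecule methyltransferases, relatives of Inmt, 8 of 13 fell and 4 rose in PolgD257A kidneys after B-IRI, and 6 fell and 4 rose in Polg+/+ kidneys. Bhmt2, which remethylates homocysteine, fell to 1163 ± 267 normalized counts in B-IRI PolgD257A, against 3012 ± 182 in Sham PolgD257A kidneys (SD, n = 6 each). Nnmt, a close relative of Inmt in sequence, had a log2 difference of 1.05 ± 0.29 in PolgD257A (limma, adjusted p = 0.00271) and of 0.17 ± 0.29 in Polg+/+ kidneys (adjusted p = 0.671). So Nnmt moved against Inmt in PolgD257A kidneys.

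Acylases and M20 peptidases, relatives of Pm20d1, moved together, with 10 of 13 lower and none higher after B-IRI in each genotype. Cndp1, the carnosinase, fell to 215 ± 48.5 normalized counts in B-IRI PolgD257A, against 1295 ± 62.0 in Sham PolgD257A kidneys, a log2 difference of -2.61 ± 0.12 (limma, adjusted p = 2.43e-15). Acy1, which frees amino acids from their N-acetyl forms, differed by -1.96 ± 0.11 in PolgD257A and -0.91 ± 0.11 in Polg+/+ kidneys (limma, adjusted p = 5.18e-14 and 2.33e-07). Pm20d2, the nearest relative by name, did not pass in either genotype (log2 0.26 ± 0.18 and 0.07 ± 0.18).

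Of 23 potassium channel genes 12 fell and 3 rose in PolgD257A kidneys, and 7 fell and 4 rose in Polg+/+ kidneys. With a filter of 50 normalized counts 1 rose in PolgD257A kidneys. Kcnj15, an inward rectifier, fell to 10512 ± 1860 normalized counts in B-IRI PolgD257A, against 18722 ± 2139 in Sham PolgD257A kidneys, and Kcnk1, a leak channel, rose to 1307 ± 179, against 972 ± 138. Kcnt2, the closest relative of Kcnt1, differed by less than 1 SE, with log2 differences of 0.18 ± 0.21 in PolgD257A and -0.09 ± 0.21 in Polg+/+ kidneys (limma, adjusted p = 0.477 and 0.780).

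Of 19 phosphodiesterases 8 fell and 2 rose in PolgD257A kidneys, and 6 fell and 1 rose in Polg+/+ kidneys. The 2 that rose became 1 without B-IRI PolgD257A replicate 1 or 4 or Sham PolgD257A replicate 6, and the 1 became 0 without B-IRI Polg+/+ replicate 4 or 6 or Sham Polg+/+ replicate 1, 2 or 4. Pde4c, which degrades cyclic AMP, fell to 1052 ± 178 normalized counts in B-IRI PolgD257A, against 2205 ± 117 in Sham PolgD257A kidneys. Pde6d, which carries lipid-modified proteins and is the only other Pde6 gene above 100 counts, differed by -0.05 ± 0.07 in PolgD257A and 0.13 ± 0.07 in Polg+/+ kidneys (limma, adjusted p = 0.554 and 0.124).

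Of 18 adhesion receptors 8 rose and 4 fell in PolgD257A kidneys, and 4 rose and 3 fell in Polg+/+ kidneys. With a filter of 50 normalized counts 5 and 2 rose. Adgrg1 rose to 9999.5 ± 899.7 normalized counts in B-IRI PolgD257A, against 5000.4 ± 391 in Sham PolgD257A kidneys. Adgrl1, a latrophilin, fell to 398 ± 27.8, against 588 ± 27.9.

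Of 9 genes of the inter-alpha-trypsin inhibitor system 4 rose and 2 fell in PolgD257A kidneys, and 3 rose and 3 fell in Polg+/+ kidneys. With no filter on low values 7 and 5 rose. Itih5 fell to 292 ± 42.5 normalized counts in B-IRI PolgD257A, against 939 ± 45.4 in Sham PolgD257A kidneys, a log2 difference of -1.70 ± 0.09 (limma, adjusted p = 1.73e-14). Itih1 differed by -0.76 ± 0.15 and Itih3 by 0.76 ± 0.19 in PolgD257A kidneys (limma, adjusted p = 9.25e-05 and 0.00125), so the heavy chain genes moved both ways. Ambp, which encodes the bikunin chain that completes the inhibitor, averaged 38.3 normalized counts in B-IRI PolgD257A and 38.8 in Sham PolgD257A kidneys. In Polg+/+ kidneys Ambp fell, to 33.3 after B-IRI against 48.9 in sham, a log2 difference of -0.54 ± 0.14 (limma, adjusted p = 0.00353). Itih4 had a median of 2.63 normalized counts over all libraries. The hepatocyte marker list, 8 genes, summed to 7650.4 to 16225 in B-IRI PolgD257A, 8715 to 9536 in B-IRI Polg+/+, 7954 to 8667 in Sham PolgD257A and 5662 to 8364 in Sham Polg+/+ libraries, and its part in these values was not tested.

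Of 12 C1q/TNF-related genes 6 fell and 1 rose in PolgD257A kidneys, and 5 fell and 1 rose in Polg+/+ kidneys. The number that rose became 2 without B-IRI PolgD257A replicate 3 in PolgD257A and without Sham Polg+/+ replicate 5 in Polg+/+ kidneys. The one that rose with all libraries, C1qtnf6, had 159 ± 25.1 normalized counts in B-IRI PolgD257A, against 66.7 ± 6.55 in Sham PolgD257A kidneys. The adipocyte markers, 6 genes that include Adipoq of this family, reached 2888 in Sham PolgD257A and 3793 in Sham Polg+/+ libraries, with medians of 1442 and 1401, and 925 to 1863 in the 12 B-IRI libraries. Their part in the values of C1qtnf3 was not tested. Of 21 alpha/beta hydrolases 11 fell and 1 rose in PolgD257A kidneys, and 3 fell and 2 rose in Polg+/+ kidneys. The 1 became 2 without Sham PolgD257A replicate 6, and the 2 became 1 without B-IRI Polg+/+ replicate 1, 3 or 6 or Sham Polg+/+ replicate 2, 3 or 5, and with a replicate block. Abhd4 was the one that rose in PolgD257A kidneys, to 1535 ± 184, against 1126 ± 64.3. Isoc1, the other isochorismatase-domain gene, fell by 0.35 ± 0.04 in PolgD257A and 0.17 ± 0.04 in Polg+/+ kidneys on the log2 scale (limma, adjusted p = 7.74e-08 and 0.00240).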

How the data were processed

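RNA was extracted with RNeasy and made into libraries with NEBNext Ultra II, per the labels' protocols. FastQC, STAR, SAMtools, featureCounts and DESeq2 with GRCm38.p6 are named in the submitters' processing notes, without versions. The deposited signal values are gene counts that the authors divided by size factors. The authors' deposited table of 1 comparison gives log2 fold changes, their standard errors (log2 units, not a score) and s-values, read like a q-value. Columns were matched to samples by name, reading Ctrl as Polg+/+ and Mut as PolgD257A. Whole reads were recovered from the signal with size factors of 0.740 to 1.31, and 100% of values above 0 came out whole within 0.001 reads.

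Genes with 10 normalized counts or more in 6 libraries or more were kept. The log2(normalized count + 1) values were fitted with limma 3.58.1 in R 4.3.3, with 4 group means over 24 libraries and Benjamini-Hochberg adjustment at 0.05. The fit was tested on simulated data. RPKM used GENCODE M21 exon lengths, and promoters came from RefSeq (GRCm38.p6). Correlations used exact permutation tests in SciPy 1.17.1. The families' named genes were the largest rise and largest fall with a mean of 100 or more, beside near relatives picked by name. Alternatives were other pseudocounts, filters and scalings, count tests on the recovered reads (edgeR version 4.0.16, DESeq2 version 1.42.0), a replicate block, and leaving out each library. The members and lists were chosen with earlier results of these data known. P-values measure the spread between these libraries, which may be partly technical. Some named genes of the families are not reported here.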

Additional observations from a re-analysis of the deposited data

Results flagged for a closer look

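In 4 of 40 groups of 6 libraries a single library stood apart from the others, where chance gives about 1 in 20. Kcnt1 had 236 normalized counts in Sham PolgD257A replicate 3, against 495 to 646 in the other 5, and that library was also lowest of its group in Slc12a1 (21212) and Ppp1r1b (1104). Kcnt1 had 435 in Sham Polg+/+ replicate 2, against 631 to 728, and that library was lowest of its group in Slc12a1 (27638) and Ppp1r1b (1390.1). Pde6a had 345 in Sham PolgD257A replicate 1, against 501 to 571, and the proximal tubule markers of that library summed to the lowest value of its group (554818). Pm20d1 had 1740.2 in Sham Polg+/+ replicate 6, against 2097 to 2245, and its proximal tubule marker sum was likewise the lowest of its group (493424). The part of segment content in these 4 values was not tested.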

How the results depend on the processing

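Between the sham groups 22 genes were called, against 37 with only the 12 libraries compared and 44 with DESeq2 on recovered reads; the cause was not tested. Leaving out 1 library gave 15 to 30. Of the 10 genes, 120 of 120 alternative values in sham kept the same side of the threshold. The injury index relations that passed with Pearson's r numbered 2, against 3 with Havcr1 alone as the index and 0 to 4 when 1 library was left out. Without the 2 libraries farthest from the median 0 passed, but over 4 libraries the test has too few orderings to decide. In the contrasts with B-IRI, 359 of 360 alternative values of the 10 genes kept their direction and size, and Kcng1 in PolgD257A moved to -3.56 with a pseudocount of 5. Without B-IRI PolgD257A replicate 3 the log2 difference between genotypes after B-IRI was -2.001 for Kcnt1, -2.19 for Kcng1 and -1.29 for Itih2, and without replicate 4 it was -1.47 for Kcnt1 and -1.71 for Kcng1, against -1.71, -1.96 and -1.08 for Kcnt1, Kcng1 and Itih2 with all libraries. Without replicate 4 the Kcnt1 interaction was -1.15, against -1.38. Of 720 family and marker counts 686 stayed within 1.5 times. Replicate numbers did not pair the libraries, since 36 same-numbered pairs correlated at -0.326 to 0.174 and 2 exceeded 0.1. With a replicate block 6835 genes were called in Polg+/+ and 10328 in PolgD257A kidneys after B-IRI, 4786 between genotypes after B-IRI, 20 in sham and 2326 for the interaction, against 7176, 10534, 5140, 22 and 2780 without it. Depth limits Kcng1, at 4 to 214 reads a library, and Adgrg4, at 15 to 139.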
